A study of Mus musculus with 10 samples.

Results

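The Krüppel-like factors Klf2, Klf3, Klf4, Klf5, Klf6, Klf9, Klf10, Klf12 and Klf13 are relatives of Klf7, which is 1 of the 5 genes transduced into revitalized mesenchymal stromal cells in this study. Open chromatin at these 9 loci, out of 21627 protein-coding loci, was described in 10 mouse bone marrow stroma libraries. A locus is the gene in mm10 coordinates plus 10 kb on either side, and its value in a library is the number of ATAC-seq peaks whose summit, the position of highest signal in a peak, lies in it. ATAC-seq inserts sequencing adapters into accessible DNA with a transposase, so a peak marks accessible chromatin and does not measure the RNA or protein of the gene.

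All libraries are from C57BL/6J mice and fall into 4 groups. Cells negative for the blood marker CD45, the red cell marker Ter119 and the endothelial marker CD31 were sorted fresh from bone marrow by a GFP reporter of Scf (stem cell factor, the gene Kitl) into Scf-GFP-negative cells, with no transduced gene (n = 2), and Scf-GFP-positive cells, with no transduced gene (n = 2). The cultured groups were stroma transduced with a control vector (n = 3, called control) and revitalized mesenchymal stromal cells (rMSC, n = 3) carrying Klf7, Ostf1, Xbp1, Irf3 and Irf7. Cultures, by the labels, were begun from sorted Scf-GFP-positive cells in medium with 20% serum and basic fibroblast growth factor. The labels do not say whether libraries of 1 group came from separate animals or cultures, so each p-value measures only the spread between libraries, which may be technical. Control cells differ from fresh Scf-GFP-positive cells by both culture and transduction, and rMSC differ from control cells by all 5 genes together.

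Krüppel-like factors bind GC-rich and CACCC-type elements through a shared zinc-finger domain near the carboxyl end. Their other ends differ: Klf2, Klf4, Klf5, Klf6 and Klf7 are mainly activators with roles in growth, quiescence and injury responses, Klf3 and Klf12 repress genes through the CtBP corepressors, and Klf9, Klf10 and Klf13 can recruit the Sin3A corepressor. Several are induced quickly by serum, stress or steroid hormones, and Klf family genes can regulate each other.

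RefSeq promoter entries (GRCm38.p6, the assembly of mm10) were found for 7 of the 9 members, Klf2, Klf3, Klf4, Klf6, Klf9, Klf12 and Klf13, and for Klf7. The 250 bases before the start given by the promoter entry, called the gene start here, are shown for 4 members. These mark the range of what was seen at gene starts. Klf2 and Klf6 had a gene-start peak in all 10 libraries, Klf4 lacked a gene-start peak in 1 library, and Klf12 had none there in any. The Klf12 entry lies inside the annotated gene, which begins at its upper-coordinate end, where some libraries had a peak, as described below. Capitals mark each match, on either strand, to the Krüppel-like factor pattern CCNCNCCC and, in Klf2, to the MEF2 element, the site of the MEF2 factors.
Klf2, chr8:72318812-72319061, plus strand: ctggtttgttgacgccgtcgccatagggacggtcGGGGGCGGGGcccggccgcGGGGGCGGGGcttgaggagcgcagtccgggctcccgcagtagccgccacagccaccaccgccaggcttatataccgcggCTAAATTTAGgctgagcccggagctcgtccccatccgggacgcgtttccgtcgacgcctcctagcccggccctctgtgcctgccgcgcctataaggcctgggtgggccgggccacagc
Klf4, chr4:55532476-55532725, minus strand: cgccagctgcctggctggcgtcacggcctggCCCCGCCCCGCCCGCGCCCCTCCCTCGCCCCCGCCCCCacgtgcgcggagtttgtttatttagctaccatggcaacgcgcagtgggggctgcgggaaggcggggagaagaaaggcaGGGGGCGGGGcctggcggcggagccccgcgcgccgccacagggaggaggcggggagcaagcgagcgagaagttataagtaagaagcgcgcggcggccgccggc
Klf6, chr13:5861239-5861488, plus strand: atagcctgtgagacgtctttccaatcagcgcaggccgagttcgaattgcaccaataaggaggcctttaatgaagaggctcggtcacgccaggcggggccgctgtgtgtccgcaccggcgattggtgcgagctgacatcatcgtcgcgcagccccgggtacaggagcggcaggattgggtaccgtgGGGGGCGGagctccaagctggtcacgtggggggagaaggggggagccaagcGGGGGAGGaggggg
Klf12, chr14:100149797-100150046, minus strand: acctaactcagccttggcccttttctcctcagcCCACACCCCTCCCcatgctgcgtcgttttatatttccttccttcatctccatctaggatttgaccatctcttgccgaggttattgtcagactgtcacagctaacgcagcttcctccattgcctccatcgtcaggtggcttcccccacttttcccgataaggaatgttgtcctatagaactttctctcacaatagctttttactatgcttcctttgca

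The pattern CCNCNCCC matched 4 times before Klf2, 10 times before Klf3, 9 times before Klf4, 2 times each before Klf6 and Klf12, and 5 times before Klf13, counting overlapping matches. No match lay before Klf9, and 8 lay before Klf7. Of 32851 RefSeq promoter stretches of the same length, 45.9% held at least 1 match. CACCC was found before Klf2, Klf3, Klf9, Klf12 and Klf13, and in 52.0% of all stretches. The MEF2 element was found before Klf2 alone among the members, beginning 118 bases before the gene start, and in 0.5% of all stretches. The CArG box, the site of the serum response factor, was found before none of these genes and in 1.5% of all stretches, and TATAAA before Klf12 alone and in 12.4% of all. These are letter matches, and no binding was measured. GC content was 71.2% before Klf2, 78.4% before Klf3, 74.0% before Klf4, 64.8% before Klf6, 59.6% before Klf9, 48.0% before Klf12 and 71.6% before Klf13, against a median of 52.4% over all stretches.

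The deposited lists hold 39936 to 78489 peaks per library, and the read depth behind them is unknown. The 39912 peaks with the highest −log10 p of each library were therefore compared, so that every library contributed a list of the same length. The lists end at a lower −log10 q in Scf-GFP-negative libraries (2.653 and 2.097) than in the other 8 (4.268 to 5.802). Replicate 1 of every group was sequenced on a different flow cell from the others. On the flow cell of the other replicates, the sorted libraries shared 1 lane and the cultured libraries another. Lane and culture cannot be told apart among those replicates. Over the 14 mesenchymal markers the summed summits were 11 to 14 in Scf-GFP-negative libraries, with Prrx1 and Twist1 at 0, and 66 to 84 in Scf-GFP-positive, 67 to 79 in control and 45 to 56 in rMSC libraries. The 12 blood markers summed to 44 to 66 in Scf-GFP-negative libraries, despite the CD45 gate, with 5 summits at Ptprc (CD45) in each, and to 18 to 20 in Scf-GFP-positive libraries, where Ptprc was at 0. They summed to 9 to 13 in control and 10 to 13 in rMSC libraries. The 10 endothelial markers summed to 13 to 25, 10 to 12, 13 to 17 and 14 to 18 in the same order of groups. Cdh5, Kdr, Emcn and Sox17 were at 0 in both Scf-GFP-negative libraries, Tek, Emcn and Sox17 in both Scf-GFP-positive ones, Emcn and Sox17 in all control and Sox17 in all rMSC libraries. Erg had 7 and 11 summits in the Scf-GFP-negative libraries and 3 to 6 in the others. The part that blood or other cells in the Scf-GFP-negative gate have in the differences between the sorted groups was not tested. In mixed cells, fewer cells with an open site and a less open site in each cell cannot be told apart.

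**Figure D1:**
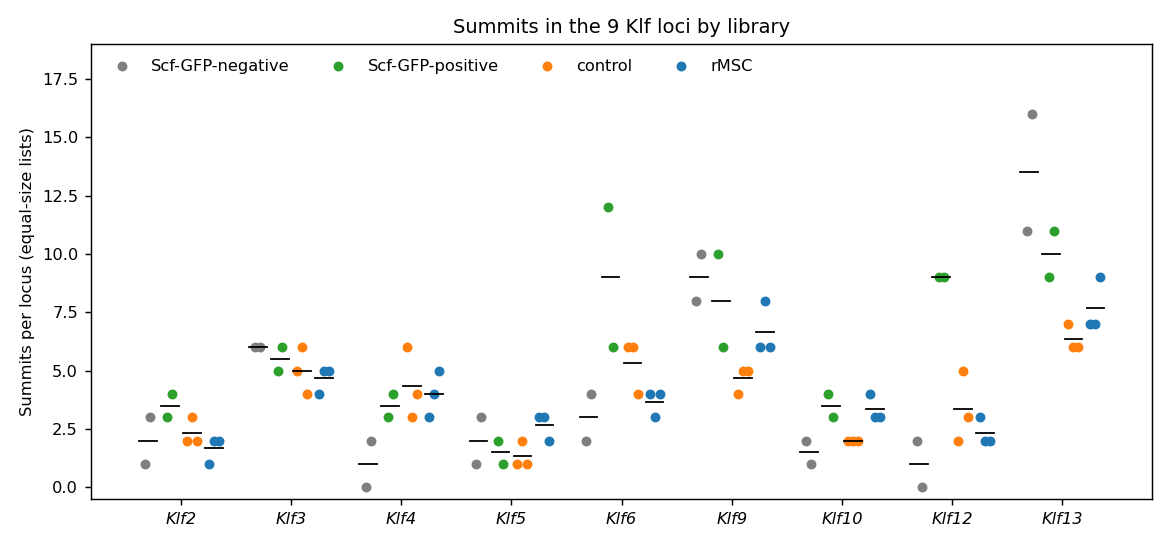
Summits per locus (vertical axis) at the 9 Klf loci (horizontal axis) in equal-size peak lists; each point is 1 library, colours are the 4 groups and short black lines are group means. Klf12 is at 9 in both Scf-GFP-positive libraries and at most 5 in any other, and Klf13 reaches its highest count, 16, in a Scf-GFP-negative library.

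Fresh Scf-GFP-positive cells had more peak summits than Scf-GFP-negative cells at Klf6, Klf10 and Klf12, and the test called no member lower. A wide open stretch can hold several summits, so a count of summits is not a count of separate open sites. Counts per locus were compared on a log2(summits + 0.5) scale with limma, in 1 fit of all 10 libraries, and a locus was called at a Benjamini-Hochberg adjusted p under 0.05 over 9127 loci. To enter the test a locus needed 2 or more summits per library on average, which 8 of the 9 members reached; Klf5, with a mean of 1.9, did not. Higher in Scf-GFP-positive cells were 3 of the 8 tested members, where 13.4% of all tested loci were called higher and 16.6% lower, 30.0% in all. Klf4, Klf6, Klf10 and Klf12 were higher with no overlap of the groups and no member was lower, where 18.6% of all tested loci were higher without overlap and 29.8% lower, 48.4% in all. The median log2 difference of the 8 members was 0.91, and that of all tested loci was -0.20. When each library was centred on its median locus, 1407 of 2300 called loci were higher, in place of 1226 of 2737, and with all deposited peaks, whose lists differ in length, 1685 of 2138 were. Without Scf-GFP-positive replicate 1, 0 members were called.

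Among the activator-type members, Klf6, an early-response gene of injury and stress at chr13:5861489-5870393, had 2 and 4 summits in the Scf-GFP-negative libraries, 12 and 6 in the Scf-GFP-positive, 6, 6 and 4 in the control and 4, 3 and 4 in the rMSC libraries. Both Scf-GFP-positive libraries were above both Scf-GFP-negative ones, though the 2 replicates differed, 12 against 6. The log2 difference was 1.43 ± 0.39 (SE) with a limma adjusted p of 0.0299. Within the first flow cell the counts were 2 against 12, and within the other 4 against 6. The call was lost without Scf-GFP-positive replicate 1 (0.95, limma adjusted p 0.151), without Scf-GFP-negative replicate 1 (1.00, limma adjusted p 0.136), and under several other settings given with the alternatives.

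Of 9 regions in the Klf6 locus, where a region merges overlapping peaks of the 10 lists, the gene-start region was open in every library. The region chr13:5869414-5872259, which spans the far end of the gene with its median summit 301 bp past that end, was open in all 8 libraries other than the Scf-GFP-negative ones and in neither of those, also when all deposited peaks were used. Inside the gene, chr13:5865823-5866753 was open in both Scf-GFP-positive libraries, 1 control and 1 rMSC library and no Scf-GFP-negative library. A neighbouring intragenic region, chr13:5863400-5864049, was open in both Scf-GFP-positive, 2 control, 1 Scf-GFP-negative and 0 rMSC libraries in the equal-size lists, and in 2 rMSC libraries when all deposited peaks were used.

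Klf2, a quiescence factor of T cells and flow-exposed endothelium at chr8:72319062-72321654, had 1 and 3 summits in the Scf-GFP-negative libraries, 3 and 4 in Scf-GFP-positive, 2, 3 and 2 in control and 1, 2 and 2 in rMSC libraries. The sorted groups touched at 3 summits, and the log2 difference of 0.79 ± 0.43 had a limma adjusted p of 0.212. It was called with a 25 kb margin (1.49, limma adjusted p 0.0192) and without Scf-GFP-negative replicate 2 (1.40, limma adjusted p 0.0477), and was at 0.18 without Scf-GFP-negative replicate 1. At the gene start the peak was weaker in rank in the Scf-GFP-negative lists, by the authors' −log10 p: it stood within the top 13.45% and 11.81% of those lists, within the top 2.83% and 3.01% of the Scf-GFP-positive, 1.96% to 7.68% of the control and 2.70% to 4.17% of the rMSC lists. The authors' fold enrichment of that peak was 12.83 and 19.40 in Scf-GFP-negative libraries and at least 22.91 in every other library. These ranks and folds are the authors' values for single peaks within a list and are given with no test.

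Klf4, a pluripotency and epithelial barrier factor at chr4:55527137-55532475, had 0 and 2 summits in the Scf-GFP-negative libraries, 3 and 4 in Scf-GFP-positive, 6, 3 and 4 in control and 3, 4 and 5 in rMSC libraries. The Scf-GFP-negative libraries were the lowest 2 of the 10 and did not overlap any other group. The log2 difference between the sorted groups was 1.83 ± 0.67 with a limma adjusted p of 0.0778, so Klf4 was not called. It was called when all deposited peaks were used (2.15, limma adjusted p 0.0301) and when each library was centred on its median locus (2.01, limma adjusted p 0.0287). Without Scf-GFP-negative replicate 1, whose count is 0, the difference was 0.67, and without Scf-GFP-negative replicate 2 it was 2.99 (limma adjusted p 0.00463). The gene-start peak of Klf4 stood within the top 7.08% to 37.49% of the 9 lists that held it, and Scf-GFP-negative replicate 1 had none.

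Klf5, a growth-promoting factor of epithelia and smooth muscle at chr14:99298691-99313412, had 1 and 3 summits in the Scf-GFP-negative libraries, 2 and 1 in Scf-GFP-positive, 1, 2 and 1 in control and 3, 3 and 2 in rMSC libraries. Every pair of groups shared a value or overlapped. Its low count kept it out of the test. A peak within 1 kb of the lower-coordinate end of the gene was present in all 10 libraries.

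**Figure D2:**
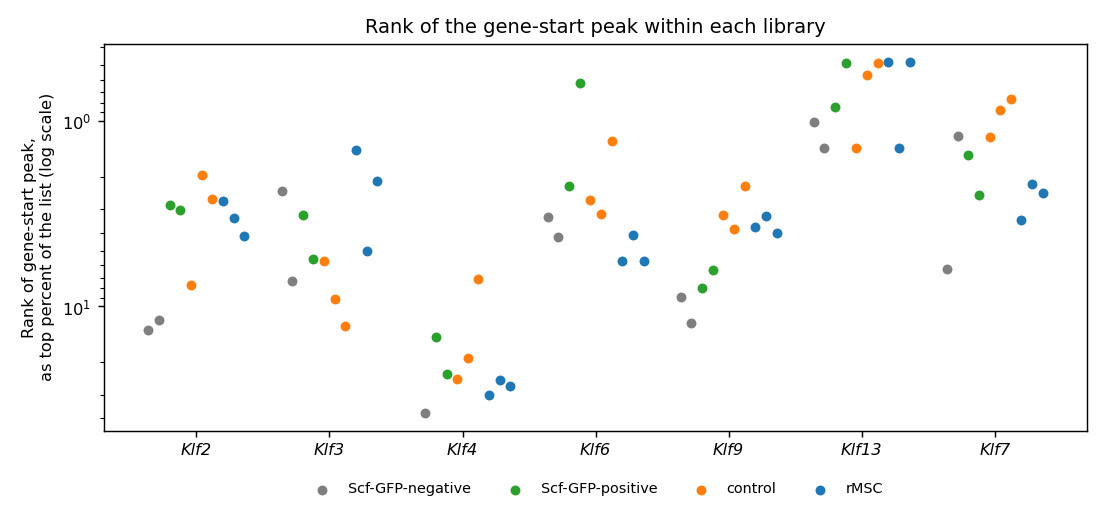
Rank of the peak nearest to the gene start (within 1 kb) in its own equal-size list, as top percent by the authors' −log10 p (log scale, higher points rank higher), for the 6 members with a promoter entry and a peak there and for Klf7; each point is 1 library. Klf13 stays within the top 1.41% everywhere, Klf2 ranks lowest in the 2 Scf-GFP-negative libraries, and Klf4 has no point for Scf-GFP-negative replicate 1, which lacked the peak.

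Of the CtBP-type repressors, Klf12 showed the largest log2 difference among the members tested between the sorted groups. Klf12 is a long gene at chr14:99866181-100285891, and it had 2 and 0 summits in the Scf-GFP-negative libraries, 9 and 9 in Scf-GFP-positive, 2, 5 and 3 in control and 3, 2 and 2 in rMSC libraries. The Scf-GFP-positive libraries were above all 8 others. The log2 difference from Scf-GFP-negative cells was 3.09 ± 0.69 with a limma adjusted p of 0.0139. The same-flow-cell counts were 2 against 9 and 0 against 9. The call was lost without either Scf-GFP-positive replicate (limma adjusted p 0.0656 and 0.0651) and in a fit of only these groups (limma adjusted p 0.208), and with 20000 peaks per library the locus fell below the filter. With 2 and 0 summits in the lower group the size depends on the added 0.5, and it was 2.53 with a pseudocount of 1. It was 4.25 without Scf-GFP-negative replicate 1, 1.93 without Scf-GFP-negative replicate 2 and 1.68 with a 25 kb margin, and remained called in each (limma adjusted p 0.00156, 0.02905 and 0.0106).

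No region of the Klf12 locus was open in all 10 libraries, and no library had a peak within 1 kb of the gene start in the promoter table shown above, which lies inside the annotated gene. Of its 14 regions, 5 were open in both Scf-GFP-positive and no Scf-GFP-negative libraries. Over all 119982 regions that share was 9.64%. The region chr14:99931839-99932399 was open in all 8 libraries other than the Scf-GFP-negative ones. The region chr14:100284258-100286678 spans the upper-coordinate end of the gene, where this minus-strand gene begins as annotated, and reaches the overlapping long noncoding gene Gm41231. This region was open in both Scf-GFP-positive and 2 of the 3 control libraries and in no rMSC or Scf-GFP-negative library. That held with equal-size lists and with all deposited peaks. It was a strong site in the fresh cells, within the top 17.77% and 20.92% of the Scf-GFP-positive lists and the top 48.85% and 66.18% of the 2 control lists. The regions chr14:100132578-100133000 and chr14:100283539-100283875 were open in both Scf-GFP-positive libraries and nowhere else, also with all deposited peaks.

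Klf3, a CtBP-dependent repressor in blood and fat cells at chr5:64803521-64832901, was near level, with 6 and 6 summits in the Scf-GFP-negative libraries, 5 and 6 in Scf-GFP-positive, 5, 6 and 4 in control and 4, 5 and 5 in rMSC libraries. All 4 groups overlapped with at least 1 other. The log2 difference between the sorted groups was -0.12 ± 0.20 (limma adjusted p 0.686), and its sign turned with 4 settings. Of 10 regions in the locus, the gene-start region and chr5:64810886-64813279, 8334 bp into the gene, were open in all 10 libraries. The protein-coding gene Gm38457 overlaps the start of Klf3, so summits there cannot be assigned to either gene.

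Of the Sin3A-type members, Klf10, a TGF-beta-induced early gene with roles in bone, lies at chr15:38291464-38300711. It had 2 and 1 summits in the Scf-GFP-negative libraries, 4 and 3 in Scf-GFP-positive, 2, 2 and 2 in control and 4, 3 and 3 in rMSC libraries. Scf-GFP-positive and rMSC libraries had the same range, 3 to 4, and no Scf-GFP-negative or control library was above 2. The log2 difference between the sorted groups was 1.04 ± 0.26 with a limma adjusted p of 0.0210. These are small counts, and the call was lost with all deposited peaks (1.36, limma adjusted p 0.0509), without Scf-GFP-negative replicate 2 (0.67, limma adjusted p 0.0624) and without Scf-GFP-positive replicate 1 (0.85, limma adjusted p 0.106). The gene-end region at the upper coordinate was open in all 10 libraries. Its best-ranked peak stood within the top 0.82% and 1.99% of the Scf-GFP-negative lists and 2.44% and 2.58% of the Scf-GFP-positive lists. This site therefore did not rank higher in Scf-GFP-positive cells. The region chr15:38283861-38284334, 7373 bp below the gene, was open in both Scf-GFP-positive and no Scf-GFP-negative library. It stood low in the Scf-GFP-positive lists, within the top 82.43% and 76.75%. In the equal-size lists of the Scf-GFP-negative and control libraries the gene-end region was the only open one, so all their summits lay in it.

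Klf9, a glucocorticoid- and thyroid hormone-induced factor at chr19:23141226-23168129, had 8 and 10 summits in the Scf-GFP-negative libraries, 10 and 6 in Scf-GFP-positive, 4, 5 and 5 in control and 6, 8 and 6 in rMSC libraries. The sorted groups overlapped, and the log2 difference of -0.19 ± 0.26 (limma adjusted p 0.611) was not called. Its regions still differed: chr19:23149945-23150705, inside the gene, was open in both Scf-GFP-negative libraries and no other in the equal-size lists, and chr19:23150853-23151382 next to it was open in both Scf-GFP-negative and 1 control library. In the full deposited lists these were also listed in 1 control and 1 rMSC, and in 3 control and 2 rMSC libraries, and in no Scf-GFP-positive library. The gene-start peak ranked within the top 8.94% and 12.34% of the Scf-GFP-negative, 7.93% and 6.35% of the Scf-GFP-positive, 2.24% to 3.82% of the control and 3.25% to 4.03% of the rMSC lists, so both cultured groups stood above both sorted groups in rank.

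Klf13, a regulator of the chemokine Ccl5 in T cells at chr7:63886351-63938915, had 11 and 16 summits in the Scf-GFP-negative libraries, 9 and 11 in Scf-GFP-positive, 7, 6 and 6 in control and 7, 7 and 9 in rMSC libraries. The sorted groups met at 11, and the difference of -0.40 ± 0.21 had a limma adjusted p of 0.204. Its gene-start peak ranked within the top 0.48% to 1.41% of every list. Of 24 regions, 3 were open in all 10 libraries and 11 in 1 library alone. The regions chr7:63933847-63934698, inside the gene, and chr7:63940914-63942137, 2832 bp before its start, were open in both Scf-GFP-negative libraries and no other in the equal-size lists. Both were also listed, when all deposited peaks were used, in 1 Scf-GFP-positive library, and the first in 1 rMSC library. The overlapping protein-coding gene E030018B13Rik and long noncoding gene Gm27252 share part of this locus.

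Over all 9 loci there were 90 regions, of which 11 were open in both Scf-GFP-positive and no Scf-GFP-negative libraries and 4 the other way. Klf12 held 5 of the 11, Klf6 and Klf13 held 2 each, and Klf2 and Klf10 held 1 each. Klf9 and Klf13 held the 4 of the other direction, 2 each. Over all 119982 regions the shares were 9.64% and 4.47%. Fewer libraries make each pattern easier to meet: the 11 became 17 and 25 without Scf-GFP-positive replicate 1 or 2, and the 4 became 18 and 12 without Scf-GFP-negative replicate 1 or 2. Of the 90 regions, 12.22% were open in all 10 libraries, against 7.76% of all regions, and 42.22% were open in 1 library, against 44.13%.

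**Figure D3:**
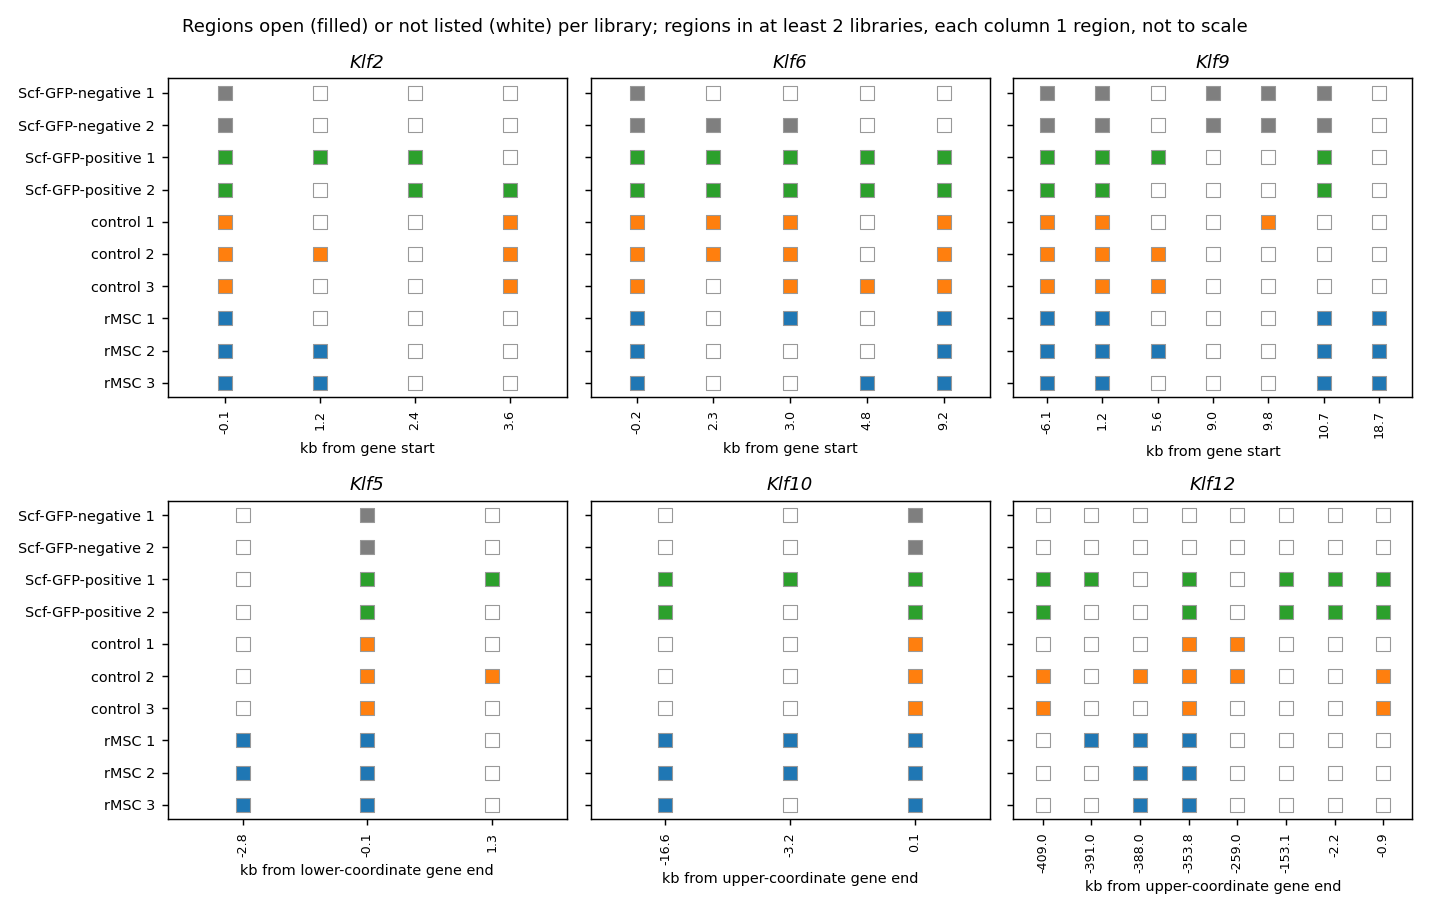
Regions of 6 Klf loci (columns, ordered by distance in kb of the median summit from the gene start, or from a gene end where no start is given; not to scale) that were open in at least 2 of the 10 libraries (rows); a filled square, coloured by group, is a library with a peak there. Klf12 has no filled square in either Scf-GFP-negative row, because its regions open in Scf-GFP-negative replicate 1 were open in that library alone and are not drawn. The leftmost Klf5 column is filled in the 3 rMSC rows alone.

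Culture was described by comparing control stroma with fresh Scf-GFP-positive cells. No tested member passed, where 11.5% of all tested loci did, 5.42% higher and 6.06% lower, but 3 members had an unadjusted limma p under 0.05. The even split of all loci rests on the equal-size lists, since 344 of 451 called loci were higher with all deposited peaks. The median log2 difference of the 8 members was -0.63, beside -0.01 over all loci. The groups did not overlap at 4 members, Klf9, Klf10, Klf12 and Klf13, all lower in control, where 17.5% of all tested loci were lower without overlap and 14.3% higher, 31.8% in all.

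At Klf13 the 6 to 7 summits of the control libraries were below the 9 and 11 of the Scf-GFP-positive ones, with a log2 difference of -0.62 ± 0.19 and a limma adjusted p of 0.0848. At Klf9 the difference was -0.68 ± 0.24 (limma adjusted p 0.110), at Klf10 -0.67 ± 0.23 (limma adjusted p 0.113) and at Klf12 -1.39 ± 0.63 (limma adjusted p 0.208). These 4 differences did not pass over all loci. Klf13 was called with 20000 peaks per library (-0.53, limma adjusted p 0.0153) and with a 25 kb margin (-0.87, limma adjusted p 0.0353), and Klf12 with the 25 kb margin (limma adjusted p 0.03465). Whether Klf10, Klf12 and Klf13 were called also depended on the Scf-GFP-negative replicates, which are in neither group compared here. Those replicates enter through the shared spread and through the choice of loci tested. Klf6 was at -0.65 ± 0.36, Klf2 at -0.50 ± 0.39, Klf3 at -0.14 and Klf4 at 0.24, with limma adjusted p-values from 0.297 to 0.884. Klf6 was at -0.18 without Scf-GFP-positive replicate 1 and -1.12 without Scf-GFP-positive replicate 2, and Klf9 at -0.34 and -1.03.

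Of the 90 regions, 8 were open in both Scf-GFP-positive and no control library: 3 at Klf13, 2 at Klf12 and 1 each at Klf2, Klf9 and Klf10. Over all regions that share was 6.16%, and the opposite pattern, open in every control library and neither Scf-GFP-positive one, had a share of 7.18% and 1 member region. That region was chr4:55541566-55542057, 9399 bp before the start of Klf4, inside the long noncoding gene Gm12506 and overlapping the end of another, Gm34343, within the top 30.95% to 59.35% of the 3 control lists. The Klf13 region chr7:63928837-63929726, 9720 bp into the gene, was open in all 4 sorted libraries and no cultured one. With all deposited peaks it was also listed in 1 control library. The 8 became 14 and 19 without Scf-GFP-positive replicate 1 or 2, and the single opposite region became 2 without Scf-GFP-positive replicate 2 or control replicate 3.

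The transduced genes were described by comparing rMSC with control stroma. No tested member passed, where 2.36% of all loci did, 1.30% higher and 1.05% lower, and 1 member had an unadjusted limma p under 0.05. The full deposited lists gave 25 of 35 called loci higher. The median log2 difference of the 8 members was -0.08, beside 0.00 over all loci. Klf9 and Klf10 were higher in rMSC with no overlap of the groups, which 9.25% of all tested loci were, and no member was lower without overlap, which 6.75% were, 16.0% in all.

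At Klf10 the rMSC libraries held 4, 3 and 3 summits and each control library 2, a log2 difference of 0.61 ± 0.21 with a limma adjusted p of 0.186. Chromosome 15, where Klf10 lies, made up 5.99% to 6.07% of the rMSC lists and 4.34% to 4.42% of the control lists, against 4.2% to 4.22% in Scf-GFP-positive and 3.45% to 3.92% in Scf-GFP-negative lists. When every library was given the same number of peaks on each chromosome, the Klf10 difference turned to -0.25 (limma adjusted p 0.696). The region chr15:38283861-38284334 was open in all 3 rMSC and no control library in the equal-size lists, and in 2 control libraries with all deposited peaks.

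At Klf9 the rMSC libraries held 6, 8 and 6 summits and the control libraries 4, 5 and 5, a log2 difference of 0.47 ± 0.21 with a limma adjusted p of 0.305. The intragenic region chr19:23151518-23152865, 10733 bp into the gene, was open in all 4 sorted and all 3 rMSC libraries and in no control library. With all deposited peaks it was also listed in 2 of the 3 control libraries. It ranked within the top 10.18% and 13.42% of the Scf-GFP-negative lists. In the Scf-GFP-positive lists it stood lower, within the top 66.84% and 72.10%, and in the rMSC lists within the top 65.80% to 88.15%. Another region, chr19:23159491-23160192, was open in the 3 rMSC libraries alone in the equal-size lists and in 2 control libraries as well with all deposited peaks.

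The Klf5 locus, too sparse to be tested, held a region listed in rMSC alone. The region chr14:99295608-99296213, with its median summit 2826 bp below the lower-coordinate end of the gene, was open in all 3 rMSC libraries and in none of the other 7, both in the equal-size lists and with all deposited peaks. Its authors' fold enrichments were 7.28, 7.72 and 9.66, and it ranked within the top 73.07%, 63.98% and 43.68% of the rMSC lists. It was chosen after its values were seen and carries no test. Of the 90 regions, 4 were open in all rMSC and no control library, against 3.05% of all regions, and 2 were open in all control and no rMSC library, against 3.43%.

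The latter 2 regions, which became 4 without control replicate 1 or 3, were at Klf2 and Klf4. At Klf2, chr8:72322172-72323506, 974 bp past the far end of the gene, was open in the 3 control libraries and Scf-GFP-positive replicate 2 and in no rMSC library. At Klf4 it was the distal region before the gene named above. In the full deposited lists both appeared in 2 of the 3 rMSC libraries. The remaining tested members were at -0.47 for Klf6, -0.41 for Klf2, -0.38 for Klf12, -0.08 for Klf3, -0.08 for Klf4 and 0.25 for Klf13, and none passed. Klf13 was called higher in rMSC with 20000 peaks per library (0.45, limma adjusted p 0.0254). Chromosome 4, where Klf4 lies, made up 4.75% to 4.89% of the rMSC and 5.80% to 5.98% of the control lists, and with levelled chromosomes the Klf4 difference was 0.22.

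**Figure D4:**
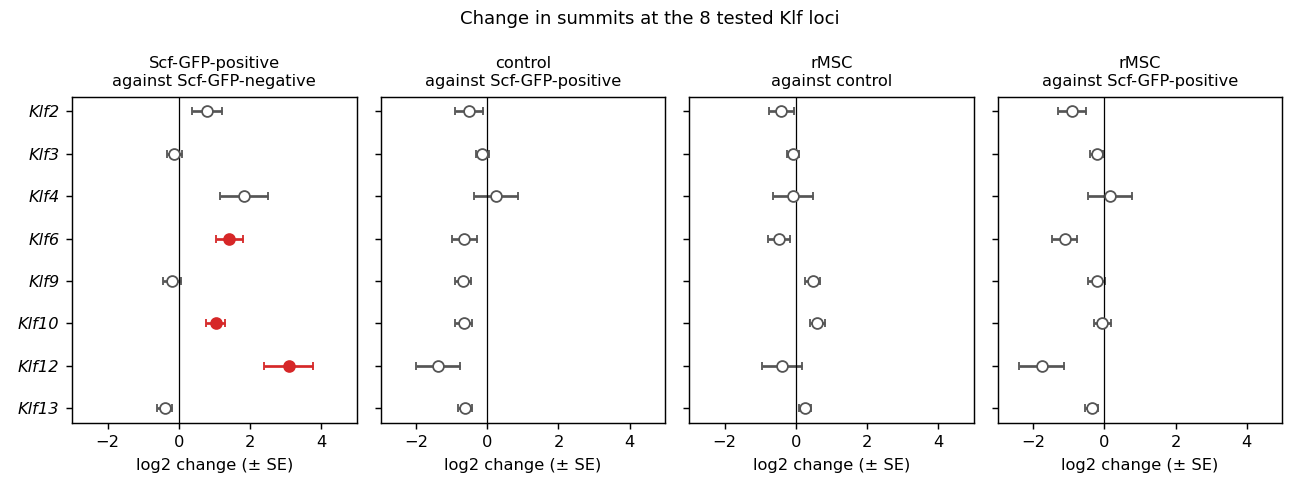
Log2 difference in summits per locus (horizontal axis, points with bars of ± 1 SE from limma) at the 8 tested Klf loci (vertical axis) in the 4 comparisons; filled red points have an adjusted p under 0.05 over all loci. The 3 red points are Klf6, Klf10 and Klf12 in Scf-GFP-positive against Scf-GFP-negative cells.

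Compared with fresh Scf-GFP-positive cells, rMSC libraries passed at no tested member, where 13.1% of all loci passed, 6.91% higher and 6.21% lower, and 2 members had an unadjusted limma p under 0.05. The full deposited lists gave 835 of 1022 called loci higher. This comparison shares the rMSC libraries with the previous one and the Scf-GFP-positive libraries with the earlier ones. Klf2, Klf6 and Klf12 were lower in rMSC with no overlap, which 18.0% of all tested loci were, and none was higher, which 17.1% were, 35.1% in all. The difference was -1.12 ± 0.36 at Klf6 (limma adjusted p 0.0794), -1.76 ± 0.63 at Klf12 (limma adjusted p 0.107) and -0.91 ± 0.39 at Klf2 (limma adjusted p 0.172). Klf6 was called with 20000 peaks per library, with loci averaging 4 or more summits and with centred values (limma adjusted p 0.0343, 0.0363 and 0.0468), and was at -0.65 without Scf-GFP-positive replicate 1. Klf12 was called with a 25 kb margin and in a fit of only these groups (limma adjusted p 0.0146 and 0.0166), and without Scf-GFP-negative replicate 1 or 2 (limma adjusted p 0.0221 and 0.0220). The other 5 members lay between -0.37 and 0.16.

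Of the 90 regions, 8 were open in both Scf-GFP-positive and no rMSC library, 4 at Klf12, 2 at Klf13 and 1 each at Klf2 and Klf6, where 7.03% of all regions had that pattern. In the opposite direction 3 regions, at Klf5, Klf9 and Klf12, were open in all rMSC and no Scf-GFP-positive library, where 7.93% of all regions were. The Klf12 region among them, chr14:99897649-99898105, was also open in 1 control library. The 8 became 14 and 17 without Scf-GFP-positive replicate 1 or 2.

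Klf7 itself, an activator with roles in neurons and fat cells at the endogenous locus on chromosome 1, had 5 and 6 summits in the Scf-GFP-negative libraries, 5 and 3 in Scf-GFP-positive, 2, 3 and 4 in control and 2, 5 and 4 in rMSC libraries. The rMSC range, 2 to 5, covered that of the control libraries. Its log2 difference was 0.22 between rMSC and control (limma adjusted p 0.811) and -0.37 between control and Scf-GFP-positive cells (limma adjusted p 0.601). The presence of a transduced copy was not measured here. Peak lists cannot show whether reads from such a copy were placed at this locus. The Klf7 gene-start peak was present in all 10 libraries, within the top 0.76% to 1.22% of the control and 2.19% to 3.44% of the rMSC lists. In the sorted groups it stood within the top 1.53% to 2.51% of the Scf-GFP-positive and 1.21% to 6.27% of the Scf-GFP-negative lists, both overlapping the rMSC range.

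Of the 8 other Klf genes, 5 were tested. For these and for the Sp and cofactor genes below, calls stand beside the shares of all tested loci. Those shares were 30.0% in Scf-GFP-positive against Scf-GFP-negative, 11.5% in control against Scf-GFP-positive, 2.36% in rMSC against control and 13.1% in rMSC against Scf-GFP-positive. No list was tested as a set. Klf15, a glucocorticoid-induced factor of metabolism, was called higher in Scf-GFP-positive than in Scf-GFP-negative cells, with 7 and 5 against 0 and 1 summits (2.89 ± 0.50, limma adjusted p 0.00531). Klf1, the erythroid factor, was called lower, with 4 and 4 against 8 and 9 summits (-0.998 ± 0.108, limma adjusted p 0.000731). In control against Scf-GFP-positive cells Klf16 (-1.23, limma adjusted p 0.0282) and Klf11 (-1.43, limma adjusted p 0.0411) were lower, and Klf11 was also lower in rMSC against Scf-GFP-positive cells (-1.43, limma adjusted p 0.0372). No other Klf gene passed in rMSC against control.

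Of the 9 Sp genes, the closest relatives of the family, 5 were tested. Sp4 was lower in Scf-GFP-positive than in Scf-GFP-negative cells (-0.89, limma adjusted p 0.00672), in rMSC than in control (-0.74, limma adjusted p 0.0374) and in rMSC than in Scf-GFP-positive cells (-0.98, limma adjusted p 0.00885). Its rMSC libraries held 1 summit each and its control libraries 2 each. Sp7, the osteoblast factor osterix, was lower in control than in Scf-GFP-positive cells, with 2 summits in each control library against 6 and 6 (-1.38, limma adjusted p 0.0282).

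Of 13 cofactor genes, 11 were tested. Crebbp, a coactivator acetyltransferase, was lower in Scf-GFP-positive than in Scf-GFP-negative cells (-1.38, limma adjusted p 0.00754). Ctbp2, a corepressor partner of Klf3 and Klf12, was higher in both cultured groups than in Scf-GFP-positive cells, with 8, 9 and 8 summits in control and 8, 10 and 9 in rMSC against 4 and 5 (0.83, limma adjusted p 0.0196, and 0.93, limma adjusted p 0.0117). Hdac1, a deacetylase of the Sin3A complex, was lower in control (-0.69, limma adjusted p 0.0462) and in rMSC (-1.58, limma adjusted p 0.00264) than in Scf-GFP-positive cells, and lower in rMSC than in control (-0.90, limma adjusted p 0.0326). Hdac1 lies on chromosome 4, whose share of the rMSC lists was the lowest of the 4 groups.

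Of 19 genes that act upstream of Klf genes, 14 were tested. In Scf-GFP-positive against Scf-GFP-negative cells Ppard (1.41) and Smurf2 (0.85) were called higher, and Mef2a (-1.18) and the glucocorticoid receptor gene Nr3c1 (-1.18) lower, with limma adjusted p-values from 0.0180 to 0.0497. Tgfbr2, a TGF-beta receptor, was lower in rMSC than in Scf-GFP-positive cells (-0.95, limma adjusted p 0.0487), and no other of these comparisons passed at an upstream gene. All 14 immediate early genes were tested. Fos (1.06), Fosb (1.14) and Nr4a1 (1.15) were higher and Ier3 (-0.53) lower in Scf-GFP-positive than in Scf-GFP-negative cells, with limma adjusted p-values from 0.00718 to 0.0337. Between these sorted groups 13.4% of all tested loci were called higher and 16.6% lower, 30.0% in all. The calls among the upstream and the immediate early genes were near that share, and neither list was tested as a set. Fos and Fosb were lower in control than in Scf-GFP-positive cells (-0.91, limma adjusted p 0.0231, and -1.22, limma adjusted p 0.0406), Fos was lower in rMSC than in Scf-GFP-positive cells (-1.25, limma adjusted p 0.00655), and none passed in rMSC against control.

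Loci whose counts followed each member most closely over the 10 libraries were taken from other chromosomes and from loci averaging 4 or more summits. Pearson r of the log2 counts was 0.887 with 4931414P19Rik and 0.884 with Cipc for Klf2, 0.976 with Ttyh2 and 0.967 with Nfatc1 for Klf4, and 0.916 with Ppard and 0.883 with Creb3l4 for Klf6. For Klf12 it was 0.921 with Antxr1 and 0.914 with Speg, and for Klf3 0.872 with Slc26a10 and 0.821 with Smox. For Klf9 it was 0.951 with Smyd3 and 0.925 with Aars, for Klf10 0.933 with Rdh13 and 0.927 with Slco3a1, and for Klf13 0.978 with Adgrl2 and 0.965 with Hyal3. These are the highest of 2588 to 2718 loci for each member, all from the same 10 libraries and group structure, and are given as a description with no p.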

How the data were processed

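The data are 10 peak lists, 1 per library, of ATAC-seq from mouse bone marrow stroma. Reads were aligned with BWA and peaks called with MACS2 on mm10, per the submitters' processing notes; versions, settings and depth: not given in the sources used here. Each deposited list gives a display score per peak, the authors' fold enrichment (a linear ratio), −log10 p and −log10 q values from the authors' peak caller, and the summit offset. The score was not used, and the fold and −log10 p served only to describe and rank peaks within a list.

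Chromosome Y was left out. Each list was reduced to the 39912 peaks with the highest −log10 p, with ties at the end broken at random with a fixed seed. Summits were counted per protein-coding RefSeq locus (GRCm38.p6, 10 kb margin), and loci with a mean of at least 2 entered limma 3.58.1 (R 4.3.3) on log2(summits + 0.5) with a mean-variance trend, 4 groups in 1 fit, two-sided, with Benjamini-Hochberg adjustment over 9127 loci and a threshold of 0.05. With 6 residual degrees of freedom and 2 or 3 libraries a group, precision is limited. The fitting script was tested on simulated random (Poisson) counts, whose spread need not match that of the real ones. Of 100 loci raised 2-fold, 0 to 5 were called over the 4 comparisons, and of 100 raised 4-fold, 16 to 42. Of 8927 unchanged loci, 1 to 5 were called. These shares belong to the simulated spread and do not give the power of the fit on the real counts. With 2 or 3 libraries a group, a member that was not called is not shown to be unchanged. Overlapping peaks were merged into regions, open in a library where at least 1 bp of a peak overlaps; these carry no test. Counting and drawing used Python 3.11.15, numpy 2.4.6 and pandas 2.3.3.

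All 9 members and Klf7 are named whatever their p. From the lists of other Klf genes, Sp genes, cofactors, upstream genes and immediate early genes every passing locus is named, at most 4 a direction and comparison. For each tested member the 2 most alike loci on other chromosomes are named. The members and lists were chosen with earlier results of these data known. Groups and replicate numbers come from the labels. The alternatives tried cover the peak list, the filter, the margin, the pseudocount, scaling, blocks and left-out libraries.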

Additional observations from a re-analysis of the deposited data

How the results depend on the processing

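Peak lists without reads limit what can be seen: a count cannot show a site that opened further, and a site listed in 1 library and not in another may lie just past the end of the shorter list. The cause of each change below was not tested, except where fewer libraries or loci bring it about by construction. Of the single-gene differences under the alternatives, 745 kept their direction and side of the threshold, 23 became called, 15 lost the call and 29 turned in sign; of the counts, 172 stayed within 1.5 times and 76 moved by more.

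Scf-GFP-positive against Scf-GFP-negative called 2737 loci, and 1040 with 20000 peaks per library, 1156 with a mean of at least 4 summits, 1281 with gene bodies alone and 898 in a fit of only the 2 groups; the members called were 3, and 1 (Klf6), 1 (Klf6), 1 (Klf12) and 0 there. Klf10 and Klf12 were not tested at a mean of at least 4 summits or with 20000 peaks, where their counts were too low, and Klf10 was not tested with gene bodies alone. The Klf6 call was also lost with gene bodies alone (2.23, limma adjusted p 0.106) and in the fit of 2 groups (limma adjusted p 0.227). Klf3 turned to 0.17 with all deposited peaks, 0.24 with 20000 peaks, 0.061 with centred values and 0.14 with chromosome totals levelled, and Klf9 to 0.21 with all deposited peaks.

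Control against Scf-GFP-positive called 1048 loci, and 451 with all deposited peaks, 448 with 20000 peaks (1 member, Klf13), 1699 with no filter, 459 with a mean of at least 4 and 586 with gene bodies alone; a 25 kb margin called 2 members, Klf12 and Klf13. rMSC against control called 215 loci, and 35 with all deposited peaks, 722 with no filter, 120 with a mean of at least 4, 116 with gene bodies alone, 345 in the fit of 2 groups and 122 with the flow cell as a block; 20000 peaks called 1 member, Klf13. Klf3 turned there to 0.56 with all deposited peaks and 0.10 with ties in genome order, Klf4 to 0.22 and Klf10 to -0.25 with levelled chromosomes. rMSC against Scf-GFP-positive called 1198 loci, and 517 with 20000 peaks, 2225 with no filter, 566 with a mean of at least 4 and 689 with gene bodies alone; 1 member was called with 20000 peaks, a mean of at least 4 and centred values (Klf6), and 1 with a 25 kb margin and in the fit of 2 groups (Klf12). With all deposited peaks Klf3 turned to 0.41, Klf9 to 0.27, Klf13 to 0.095 and Klf7 to 0.20; Klf7 was at 0.093 with gene bodies alone and 0.092 with a 25 kb margin, where Klf4 was at -0.048 and Klf10 at 0.13.

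The levelled chromosomes and the ties in genome order were chosen after seeing the data; each called 2 members between the sorted groups, Klf6 being lost (1.37, limma adjusted p 0.0511, and 1.79, limma adjusted p 0.0626) and, with ties in genome order, Klf10 kept. With levelled chromosomes Klf10 was at 0.85 (limma adjusted p 0.0724) and Klf4 was called (1.95, limma adjusted p 0.0273). Deviations of same-numbered libraries from their group means correlated between -0.043 and 0.015, and those of other pairs between -0.027 and 0.039. This cannot show whether libraries were paired, since in a group of 2 libraries the deviations mirror each other. The labels do not give the origin of replicates. With the replicate block 2296, 365, 40 and 608 loci were called in the 4 comparisons, and 2 members in the first, Klf6 being at an adjusted p of 0.0676 with limma.

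Leaving out 1 library at a time gave 1845 to 2593 loci in the first comparison, 430 (without Scf-GFP-positive replicate 1) to 1362 in control against Scf-GFP-positive, 61 (without control replicate 3) to 438 in rMSC against control and 511 (without Scf-GFP-positive replicate 1) to 1527 in rMSC against Scf-GFP-positive; members called ranged from 0 to 4, 0 to 3, 0 to 0 and 0 to 1. Klf9 ranged from -0.54 to 0.15 between the sorted groups. In rMSC against control Klf3 ranged from -0.22 to 0.048, Klf4 from -0.29 to 0.16 and Klf7 from -0.021 to 0.55, and in rMSC against Scf-GFP-positive Klf4 from -0.024 to 0.34, Klf9 from -0.56 to 0.13, Klf10 from -0.24 to 0.12 and Klf7 from -0.48 to 0.18.

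With all deposited peaks the member loci held 128 regions, of which 20 were open in both Scf-GFP-positive and no Scf-GFP-negative libraries, 2 the other way, 3 in every control and neither Scf-GFP-positive library, 2 in all rMSC and no control, 1 in all control and no rMSC and 6 in all rMSC and no Scf-GFP-positive libraries; 1 was open in all control and no rMSC libraries when 50% of a region had to overlap. Leaving out a library gave 11 to 25 for Scf-GFP-positive and no Scf-GFP-negative, 5 to 18 for the reverse, 1 to 2 for control and not Scf-GFP-positive, 2 to 4 for control and not rMSC, 8 to 19 for Scf-GFP-positive and no control and 9 to 17 for Scf-GFP-positive and no rMSC libraries.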
